A study of Mus musculus with 46 samples.

Results

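The genes described here encode 10 enzymes and enzyme regulators of mitochondrial NADP, folate, fat, purine and intermediary metabolism: Nadk2, Grhpr, Impdh1, Pdp1, Amacr, Decr1, Aldh1b1, Ggh, Ahcyl2 and Aco1. They were chosen by name, from genes that lie in 3 stretches of the mouse genome where the identifiers of the deposited count table could be matched to genes, and 9 of the 10 reached a mean of 5 CPM over all libraries, CPM being counts relative to 1000000 counts of the library. The table holds 55416 gene identifiers, of which 8986 had enough counts to be tested, and 346 of those lie in the 3 stretches (GRCm38, chr15:9071260-37007773, chr4:5632328-55532466 and chr6:13834458-31563981).

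RNA was sequenced from mouse embryonic fibroblasts (MEFs), cultured connective tissue cells, of 2 genotypes. ATF4 KO cells were treated for 7 h with 600 nM borrelidin (12 libraries) or with vehicle, 1% v/v DMSO (11 libraries), and wild type cells likewise with borrelidin (12 libraries) or vehicle (11 libraries). Borrelidin inhibits threonyl-tRNA synthetase and was delivered in the same share of DMSO, so all cells received DMSO. The wild type MEFs were purchased and the ATF4 KO line was made from MEFs in house by CRISPR/Cas9 editing and cell sorting, so that loss of ATF4 and other differences between these lines cannot be told apart. The design asks which changes after borrelidin need ATF4. The row of Atf4 and those of the fibroblast markers lie outside the 3 stretches, so loss of the Atf4 transcript and the identity of the cells were not analysed here.

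An uncharged tRNA activates the kinase GCN2, which slows general translation and raises translation of ATF4, a transcription factor known for switching on amino acid synthesis, amino acid transport and tRNA charging genes. ATF4 is also known to act on the one-carbon and mitochondrial metabolism that feeds nucleotide and NADPH synthesis. The enzymes described here sit around those routes. Nadk2 makes the NADP of the mitochondrial matrix, Impdh1 commits purines to guanine nucleotides, Ggh shortens the glutamate tail that keeps folate in cells, and Amacr and Decr1 prepare branched and polyunsaturated fatty acids for beta-oxidation.

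Some libraries stood apart in ways the groups do not explain. On the second principal component of the 500 most variable rows, 14 libraries were separated from the rest of their group: replicates 1 to 3 of ATF4 KO with borrelidin, replicates 1 to 3 of ATF4 KO with vehicle, replicates 1 to 8 of wild type with vehicle, and no library of wild type with borrelidin. They held 15902 to 18967 identifiers with at least 1 count, against 12357 to 13719 in the other 32 libraries, at total counts of 2706771 to 3467765 against 2047362 to 3388068. In the wild type response this division of libraries nearly coincides with treatment, so most values over all 46 libraries are set beside values over the 32. The second component is drawn from the expression values themselves. The study describes the same-ranked component of its analysis as separating samples by drug, more clearly in wild type cells. Here wild type with borrelidin scored 6.37 to 9.72. Wild type with vehicle scored -19.86 to -13.8 in the 8 libraries set apart and -0.43 to 1.52 in the other 3. The vehicle libraries left out were the farthest from borrelidin, and the effect of this on the calls was not tested. The library of wild type with borrelidin that is replicate 5 also stood apart, with a median Spearman rho of 0.935 to its group against 0.97 to 0.986 for the others and with 28.0% of its counts in its top 50 rows against 19.2% to 22.0%. Tars, the gene of the enzyme that borrelidin inhibits, averaged 777 ± 83.5 CPM in ATF4 KO with borrelidin and 622 ± 63.6 CPM in ATF4 KO with vehicle, against 3217 ± 164.2 CPM in wild type with borrelidin and 931 ± 223 CPM in wild type with vehicle (SD, n = 12, 11, 12 and 11).

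Levels are CPM scaled by TMM factors, which correct for differences in library composition. Because a row may hold only part of a gene's reads, levels were compared between groups and never between genes. Fold changes are on the log2 scale with their standard error (SE), from edgeR's quasi-likelihood test fitted on all 8986 rows with Benjamini-Hochberg adjustment, and a gene was called at an adjusted p under 0.05. In RNA from bulk cultures, a lower level can mean less RNA per cell or fewer cells that carry it, and these cannot be told apart.

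The clearest pattern was between the genotypes under borrelidin, where 7 of the 9 genes were lower in ATF4 KO cells and none was higher. Among all rows 24.1% were called lower and 25.7% higher in that comparison, and the median log2 fold change was -0.22 over the 9 genes and 0.04 over all rows. Only 346 of the 8986 rows lie in the 3 stretches, so shares and medians over all rows rest mostly on rows not matched to genes. Over the 32 libraries 6 of the 9 were called, all lower, where 54.3% of all rows were called in either direction, and the medians were -0.17 and 0.01. The 2 genes with the largest differences were Nadk2 and Grhpr, followed by Amacr and Impdh1. Groups did not overlap for 3 of the 9, Nadk2, Grhpr and Impdh1, against 11.1% of all rows. Only Nadk2 of the 9 passed an adjusted p under 1e-10, against 5.49% of all rows. The study set that threshold, among others, on the ATF4 term of its limma fit and not on this contrast.

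**Figure D1:**
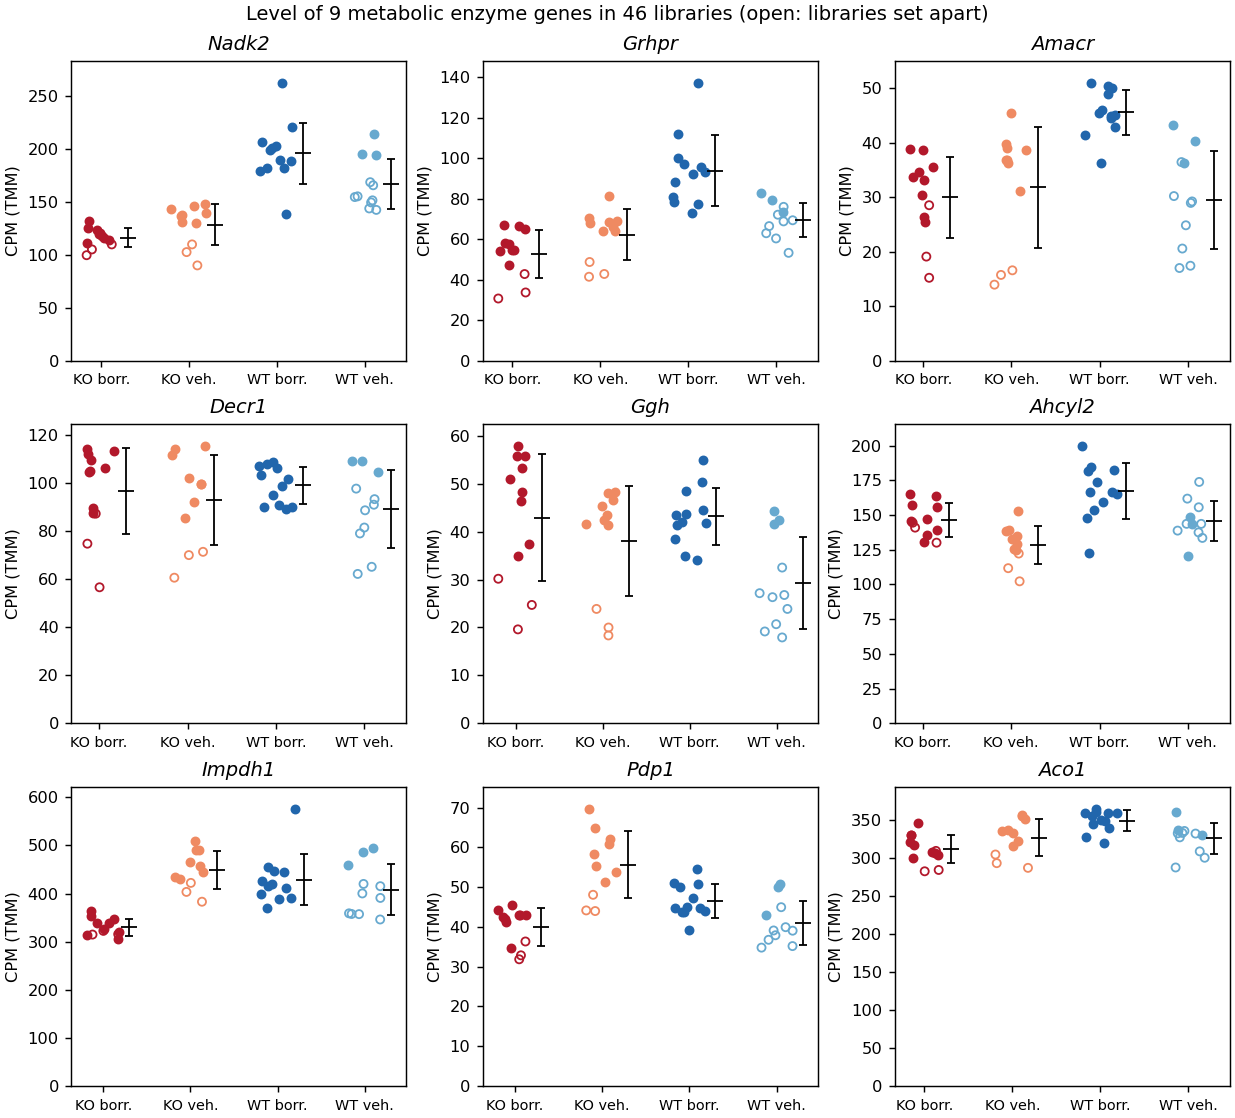
TMM-normalized CPM of the 9 genes in each library (vertical axis, from 0), with the 4 groups side by side. Points are libraries, open points the 14 set apart, and bars the group mean with its SD (n = 12, 11, 12 and 11). Nadk2, Grhpr and Impdh1 of ATF4 KO with borrelidin lie wholly below wild type with borrelidin, and for Ggh and Amacr the open points lie low in their groups.

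The windows around the transcription start were read for Grhpr and Impdh1, since these genes separated the genotypes without overlap under borrelidin and have a window in the RefSeq table used (GRCm38.p6, 250 bases before the start and 50 after it). They are printed 5′ to 3′ on the strand of the gene, with the bases from the start site on in capitals. Grhpr is read on the plus strand at chr4:44981144-44981443 and Impdh1 on the minus strand at chr6:29216315-29216614. Impdh1 has another window in that table, at chr6:29212248-29212547, which was searched as well and is not printed.
Grhpr: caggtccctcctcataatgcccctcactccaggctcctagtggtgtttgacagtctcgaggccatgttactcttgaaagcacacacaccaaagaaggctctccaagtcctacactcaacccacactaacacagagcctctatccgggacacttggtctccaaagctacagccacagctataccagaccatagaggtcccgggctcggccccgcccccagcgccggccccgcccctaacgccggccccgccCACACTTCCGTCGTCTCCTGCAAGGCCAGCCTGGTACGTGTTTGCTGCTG
Impdh1: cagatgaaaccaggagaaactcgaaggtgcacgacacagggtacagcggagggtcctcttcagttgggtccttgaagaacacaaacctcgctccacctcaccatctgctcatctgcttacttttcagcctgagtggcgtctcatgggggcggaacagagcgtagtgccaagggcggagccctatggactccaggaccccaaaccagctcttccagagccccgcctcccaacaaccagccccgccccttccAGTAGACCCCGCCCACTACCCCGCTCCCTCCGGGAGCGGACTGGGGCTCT
Of the 10 genes, 5 (Aco1, Grhpr, Aldh1b1, Impdh1 and Ahcyl2) matched 8 windows. The composite letters TTGCATCA and TTTCATCA, to which ATF4 with a C/EBP partner is known to bind, were searched on both strands. They were in 0 of these 8 windows and in 624 of the 32851 windows of the table (1.9%), which says only that these letters are not in these stretches of sequence.

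Nadk2 (ENSMUSG00000022253, chr15:9071260-9110891, plus strand) encodes the mitochondrial NAD kinase, whose NADP is needed in the matrix for proline synthesis and for the reductase steps of fat oxidation. Its CPM had a lowest, median and highest value of 99.6, 117 and 132 in ATF4 KO with borrelidin, and of 90.0, 137 and 148 in ATF4 KO with vehicle. The same 3 values were 139, 194 and 262 in wild type with borrelidin, and 142, 155 and 214.3 in wild type with vehicle. Every ATF4 KO library with borrelidin was below every wild type library with borrelidin, and the lowest of the wild type group, at 139 CPM, was replicate 5. The means were 116 ± 8.98 CPM in ATF4 KO and 196 ± 29.0 CPM in wild type under borrelidin (SD, n = 12 each), a log2 fold change of -0.76 ± 0.08 (SE, edgeR adjusted p = 3.3e-11) and a change of -40.8%. It was -0.71 without the 14 libraries (adjusted p = 5.5e-12), and without replicate 5 of wild type with borrelidin -0.80 (adjusted p = 4.7e-12).

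Nadk2 was lower in ATF4 KO cells with vehicle as well. It averaged 129 ± 19.2 CPM in ATF4 KO and 166.8 ± 23.96 CPM in wild type (SD, n = 11 each), a log2 fold change of -0.38 ± 0.08 (SE, edgeR adjusted p = 3.2e-04), and of -0.53 without the 14 libraries (adjusted p = 5.3e-05). These vehicle groups overlapped: the highest ATF4 KO library, at 148 CPM, was above the lowest wild type library, at 142 CPM. Within wild type with vehicle the 8 libraries set apart were at 142 to 168.7 CPM and the other 3 at 194 to 214.3 CPM, within the range of the libraries with borrelidin. The wild type response was a log2 fold change of 0.23 ± 0.08 (SE, edgeR adjusted p = 0.016) over 46 libraries and -0.04 (adjusted p = 0.88) over the 32. In ATF4 KO cells it was -0.15 ± 0.08 (adjusted p = 0.18) over 46 libraries and -0.21 (adjusted p = 0.016) over the 32.

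Grhpr (ENSMUSG00000035637, chr4:44981395-44990734, plus strand) encodes the glyoxylate and hydroxypyruvate reductase, a cytosolic enzyme that uses NADPH to clear glyoxylate before it becomes oxalate and that links hydroxypyruvate to the serine pathway. Its lowest, median and highest CPM were 30.7, 54.5 and 67.1 in ATF4 KO with borrelidin and 41.4, 66.2 and 81.3 in ATF4 KO with vehicle. In wild type with borrelidin they were 73.0, 92.9 and 137, and in wild type with vehicle 53.2, 69.4 and 82.8. Under borrelidin all ATF4 KO libraries were below all wild type libraries, while under vehicle the genotypes overlapped over most of their range. The highest wild type library with borrelidin, at 137 CPM, was replicate 5.

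Under borrelidin Grhpr averaged 52.6 ± 12.0 CPM in ATF4 KO and 93.8 ± 17.6 CPM in wild type (SD, n = 12 each), a log2 fold change of -0.83 ± 0.11 (SE, edgeR adjusted p = 2.5e-08) and a change of -43.9%. The difference was -0.68 without the 14 libraries (adjusted p = 9.6e-09) and -0.78 without replicate 5 of wild type with borrelidin (adjusted p = 7.6e-08). With vehicle the fold change between genotypes was -0.16 ± 0.12 (adjusted p = 0.29), with an unadjusted 95% interval of -0.40 to 0.08, and -0.19 (adjusted p = 0.33) without the 14 libraries. With the division of the libraries as a block, which fits the same shift in every group, it was -0.42 ± 0.09 (adjusted p = 2.2e-04). The other fits did not make this call.

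Impdh1 (ENSMUSG00000003500, chr6:29200434-29216364, minus strand) encodes an inosine monophosphate dehydrogenase, the rate-limiting enzyme of guanine nucleotide synthesis. The lowest, median and highest CPM were 305, 324 and 363 in ATF4 KO with borrelidin and 383, 444 and 509 in ATF4 KO with vehicle. For wild type cells they were 370, 418 and 576 with borrelidin, and 346, 400 and 495 with vehicle. The ATF4 KO libraries with borrelidin lay below every library of both groups they were compared with, ATF4 KO with vehicle and wild type with borrelidin, and within themselves varied by a coefficient of variation of 5.46%. Replicate 5 again was the highest wild type library with borrelidin, at 576 CPM, where the next was at 454 CPM.

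Impdh1 fell after borrelidin in ATF4 KO cells, to 330 ± 18.0 CPM (SD, n = 12), against 448 ± 39.1 CPM with vehicle (SD, n = 11). The log2 fold change was -0.44 ± 0.07 (SE, edgeR adjusted p = 5.5e-07) over 46 libraries and -0.48 (adjusted p = 4.5e-08) over the 32, a change of -26.4% in the fit of all libraries. In wild type cells it averaged 429 ± 53.1 CPM with borrelidin (n = 12) and 408 ± 53.2 CPM with vehicle (n = 11), a log2 fold change of 0.07 ± 0.09 (adjusted p = 0.51), or -0.16 (adjusted p = 0.50) over the 32 libraries. Between genotypes under borrelidin it was -0.38 ± 0.06 (adjusted p = 2.3e-06), -0.36 without the 14 libraries (adjusted p = 9.0e-07) and -0.34 without replicate 5 of wild type with borrelidin (adjusted p = 8.7e-06).

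**Figure D2:**
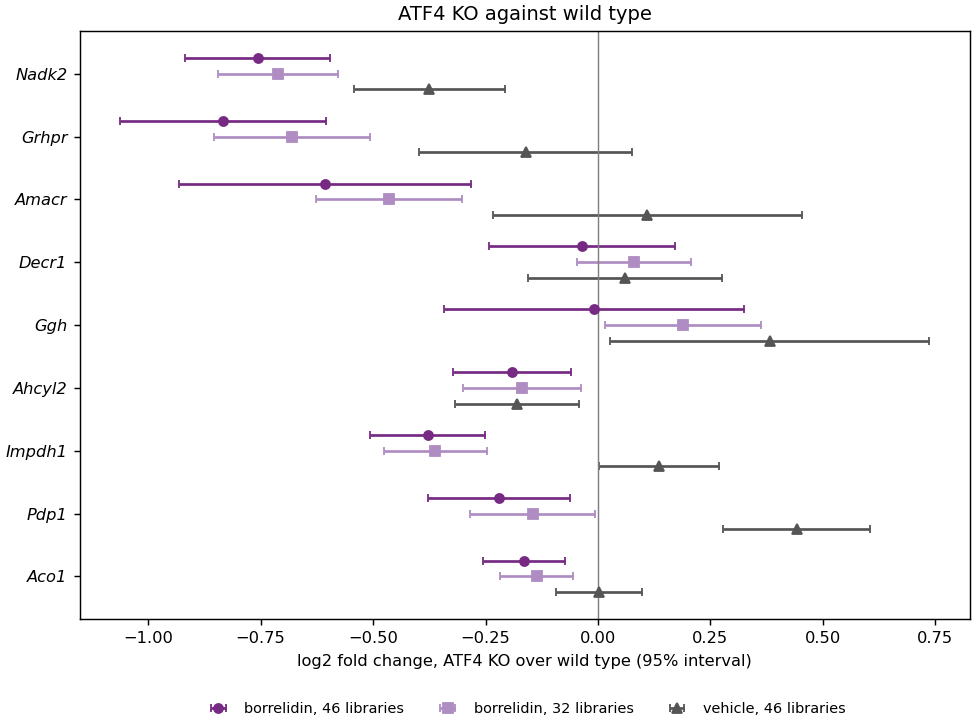
Log2 fold change of each gene between genotypes, ATF4 KO over wild type (horizontal axis, 0 is no difference), with unadjusted 95% intervals from edgeR. For each gene the marks are, from the top, borrelidin over 46 libraries, borrelidin over the 32 not set apart, and vehicle over 46. Over 46 libraries with borrelidin 7 of the 9 genes were called lower, from -0.83 for Grhpr to -0.16 for Aco1, and under vehicle Pdp1 lay at 0.44 and Nadk2 at -0.38.

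Pdp1 (ENSMUSG00000049225, chr4:11958184-11966452, minus strand) encodes the catalytic subunit of a pyruvate dehydrogenase phosphatase, which removes the inhibitory phosphates from pyruvate dehydrogenase and so opens the way of pyruvate into the citrate cycle. Its lowest, median and highest CPM were 31.9, 42.3 and 45.5 in ATF4 KO with borrelidin and 44.0, 55.4 and 69.7 in ATF4 KO with vehicle. In wild type cells they were 39.1, 44.9 and 54.6 with borrelidin and 34.8, 39.1 and 50.8 with vehicle. ATF4 KO with vehicle stood highest of the 4 groups, and only its lowest libraries, all set apart, reached down into the range of ATF4 KO with borrelidin.

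Pdp1 also fell after borrelidin in ATF4 KO cells, with means of 40.0 ± 4.71 CPM with borrelidin (SD, n = 12) and 55.7 ± 8.40 CPM with vehicle (SD, n = 11). The log2 fold change was -0.48 ± 0.08 (SE, edgeR adjusted p = 6.2e-06), a change of -28.2%, and -0.50 (adjusted p = 7.0e-07) without the 14 libraries. In wild type cells the response was 0.18 ± 0.11 (adjusted p = 0.14) over 46 libraries and -0.04 (adjusted p = 0.90) over the 32. Fitted with 4 group means, as the other comparisons were, the wild type response over 46 libraries had the same size and was called (0.18, adjusted p = 0.047). With vehicle Pdp1 was higher in ATF4 KO, at a log2 fold change of 0.44 ± 0.08 (adjusted p = 1.9e-05) and at 0.32 (adjusted p = 0.026) without the 14 libraries. Under borrelidin the sign was the opposite, -0.22 ± 0.08 (adjusted p = 0.018), and the call was lost without the 14 libraries (-0.15, adjusted p = 0.073).

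In ATF4 KO cells as a whole, borrelidin lowered 2 of the 9 genes, Impdh1 and Pdp1, and raised 1, Ahcyl2, so that 3 of the 9 were called. Of all rows 30.3% were called in either direction and 15.3% were called lower. Impdh1 was the single gene of the 9 whose groups did not overlap, against 2.50% of all rows, and none of the 9 passed 1e-10, against 0.490% of all rows. The median log2 fold change was -0.09 over the 9 genes and -0.03 over all rows. Same-numbered libraries of these groups deviated together, though only 2 of 11 correlated best with their own number. In a fit blocked on that number the response of Grhpr, -0.24 ± 0.12 without the block (adjusted p = 0.11), was -0.26 ± 0.09 (SE, edgeR adjusted p = 0.022). In the 32 libraries 4 of the 9 were called, all lower, Grhpr (-0.24, adjusted p = 0.036), Impdh1, Nadk2 and Pdp1, beside 41.8% of all rows called in either direction, and the medians were -0.20 and 0.01.

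**Figure D3:**
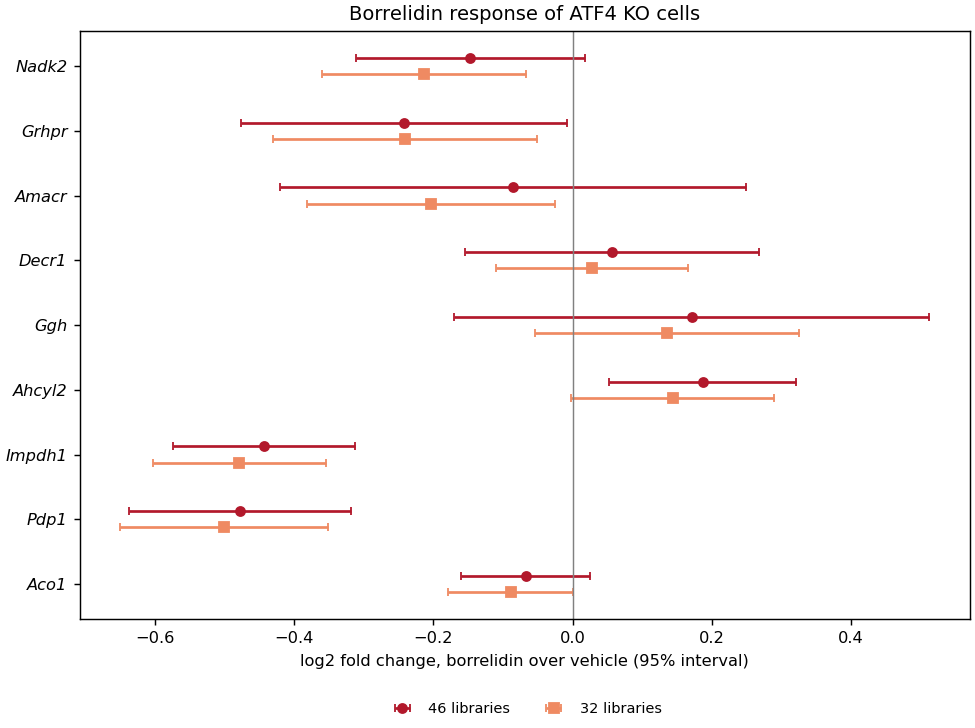
Borrelidin response of ATF4 KO cells, as the log2 fold change of borrelidin over vehicle (horizontal axis), with unadjusted 95% intervals. For each gene the upper mark is the fit of 46 libraries and the lower one that of the 32 libraries not set apart. Impdh1 (-0.44 and -0.48) and Pdp1 (-0.48 and -0.50) lay below 0 in both fits.

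Amacr (ENSMUSG00000022244, chr15:10981756-10996626, plus strand) encodes the alpha-methylacyl-CoA racemase of peroxisomes and mitochondria, which turns branched fatty acids and bile acid intermediates into the form that beta-oxidation accepts. The lowest, median and highest CPM were 15.2, 31.8 and 38.9 in ATF4 KO with borrelidin and 13.9, 36.7 and 45.5 in ATF4 KO with vehicle. In wild type cells they were 36.3, 45.2 and 50.9 with borrelidin and 17.0, 29.2 and 43.3 with vehicle. Wild type with borrelidin was the highest and the tightest of the 4 groups, with a coefficient of variation of 9.21% where counting error alone gives 9.15%. In the 3 other groups, which hold the libraries set apart, it was 24.7%, 34.8% and 30.4%.

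Under borrelidin Amacr averaged 30.0 ± 7.41 CPM in ATF4 KO and 45.5 ± 4.20 CPM in wild type (SD, n = 12 each), a log2 fold change of -0.61 ± 0.16 (SE, edgeR adjusted p = 1.6e-03), or -0.47 (adjusted p = 5.2e-06) without the 14 libraries. In wild type cells it was called higher with borrelidin, at 0.63 ± 0.17 (adjusted p = 1.3e-03), over 46 libraries. Over the 32 that response was 0.19 (adjusted p = 0.38), with 36.2 to 43.3 CPM in the 3 remaining libraries with vehicle. The 8 vehicle libraries set apart averaged 25.6 ± 6.87 CPM.

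Decr1 (ENSMUSG00000028223, chr4:15917240-15945507, minus strand) encodes the mitochondrial dienoyl-CoA reductase, an NADPH-dependent enzyme that polyunsaturated fatty acids need on their way through beta-oxidation. Its group means were 96.7 ± 17.9 CPM in ATF4 KO with borrelidin, 92.9 ± 18.9 CPM in ATF4 KO with vehicle, 99.0 ± 7.72 CPM in wild type with borrelidin and 89.1 ± 16.1 CPM in wild type with vehicle (SD, n = 12, 11, 12 and 11). The groups overlapped throughout and Decr1 was called in none of the 5 comparisons. The difference between genotypes under borrelidin was -0.04 on the log2 scale with an unadjusted 95% interval of -0.24 to 0.17, and the wild type response 0.15 with one of -0.06 to 0.36. An annotated microRNA gene, Mir6400, lies within Decr1.

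Ggh (ENSMUSG00000073987, chr4:20042052-20066750, plus strand) encodes gamma-glutamyl hydrolase, the lysosomal enzyme that cuts the glutamate tail from folates and antifolates. Its lowest, median and highest CPM were 19.6, 47.4 and 57.9 in ATF4 KO with borrelidin and 18.3, 42.4 and 48.3 in ATF4 KO with vehicle, and 34.0, 42.7 and 55.0 in wild type with borrelidin and 17.9, 26.8 and 44.3 in wild type with vehicle. All libraries under 34.0 CPM were among the 14 set apart. Within wild type with vehicle the 8 libraries set apart averaged 24.3 ± 4.87 CPM and the other 3 averaged 42.8 ± 1.42 CPM. The wild type response was 0.56 ± 0.17 (SE, edgeR adjusted p = 5.4e-03) over 46 libraries and 0.01 (adjusted p = 0.98) over the 32. Between genotypes under borrelidin Ggh was at -0.01 ± 0.17 (adjusted p = 0.97), or 0.19 (adjusted p = 0.061) over the 32.

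Ahcyl2 (ENSMUSG00000029772, chr6:29768011-29912310, plus strand) encodes a protein related to the S-adenosylhomocysteine hydrolase of the methionine cycle. The lowest, median and highest CPM were 130, 145 and 165 in ATF4 KO with borrelidin and 102, 129 and 153 in ATF4 KO with vehicle, and in wild type 123, 166.5 and 199.8 with borrelidin and 120, 144 and 173.9 with vehicle. It was the only one of the 9 genes called higher after borrelidin in each genotype over 46 libraries, by 0.19 ± 0.07 in ATF4 KO (SE, edgeR adjusted p = 0.029) and by 0.20 ± 0.07 in wild type (adjusted p = 0.018). Over the 32 libraries neither was called, at 0.14 in ATF4 KO (adjusted p = 0.11) and 0.28 in wild type (adjusted p = 0.083). The difference of these responses was 0.01 ± 0.09, with an unadjusted 95% interval of -0.18 to 0.20.

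Ahcyl2 was lower in ATF4 KO under borrelidin, at 146 ± 12.1 CPM against 167.03 ± 20.1 CPM in wild type (SD, n = 12 each, log2 fold change -0.19 ± 0.07, edgeR adjusted p = 0.013), and at -0.17 (adjusted p = 0.028) without the 14 libraries. With vehicle it was at 129 ± 13.84 CPM in ATF4 KO and 146 ± 14.4 CPM in wild type (SD, n = 11 each), a log2 fold change of -0.18 ± 0.07 (adjusted p = 0.035) that was -0.03 (adjusted p = 0.88) without the 14 libraries. The 3′ end of Ahcyl2 overlaps 4930528J11Rik on the other strand, and as the strand setting of the counting is not given, reads of the pair cannot be told apart.

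Aco1 (ENSMUSG00000028405, chr4:40143081-40198338, plus strand) encodes the cytosolic aconitase, which converts citrate to isocitrate and, when it has lost its iron-sulfur cluster, binds the mRNAs of iron uptake and storage. It varied little between libraries, with a coefficient of variation of 3.98% to 7.40% by group, where counting error alone gives 3.19% to 3.29%. Under borrelidin it averaged 312 ± 18.5 CPM in ATF4 KO and 349 ± 13.9 CPM in wild type (SD, n = 12 each), a log2 fold change of -0.16 ± 0.05 (SE, edgeR adjusted p = 2.3e-03), and -0.14 (adjusted p = 4.4e-03) without the 14 libraries. The ranges overlapped, with 283 to 346 CPM in ATF4 KO and 320 to 365 CPM in wild type. With vehicle the means were 326 ± 24.2 CPM in ATF4 KO and 326 ± 20.1 CPM in wild type (n = 11 each), and Aco1 was called after borrelidin in neither genotype (-0.07, adjusted p = 0.28, in ATF4 KO and 0.10, adjusted p = 0.082, in wild type). Over the 32 libraries these responses were -0.09 (adjusted p = 0.11) in ATF4 KO and 0.03 (adjusted p = 0.85) in wild type.

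Aldh1b1 (ENSMUSG00000035561, chr4:45799022-45804604, plus strand), a mitochondrial aldehyde dehydrogenase, had 0 to 13 counts per library and a mean of 1.14 CPM, under the minimum of 5 CPM, and was not tested.

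After borrelidin in wild type cells, 5 of the 9 genes were called higher over 46 libraries, Ahcyl2, Amacr, Ggh, Grhpr and Nadk2, and none lower, where 25.5% of all rows were called higher and 32.0% lower. The response of Grhpr was 0.43 ± 0.12 (SE, edgeR adjusted p = 2.2e-03), or 0.25 over the 32 libraries (adjusted p = 0.26), with 93.8 ± 17.6 CPM with borrelidin (SD, n = 12) and 69.5 ± 8.59 CPM with vehicle (SD, n = 11). With the division of the libraries as a block this response of Grhpr was 0.05 (adjusted p = 0.80). That block fits the same shift in every group. The log2 ratio of Grhpr in the libraries set apart to the rest was -0.71 and -0.64 in the ATF4 KO groups and -0.25 in wild type with vehicle. What this did to the blocked value was not tested. No gene of the 9 had groups without overlap, against 6.25% of all rows, and none passed 1e-10, against 1.31% of all rows. The median log2 fold change was 0.20 over the 9 genes and -0.06 over all rows. Without the 14 libraries, which leaves 12 libraries with borrelidin and 3 with vehicle, edgeR called none of the 9, against 10.8% of all rows, and the medians were 0.01 and 0.01. Of the 9 genes only Ahcyl2 then had an unadjusted 95% interval that left out 0. The 3 vehicle libraries kept were those nearest to borrelidin on the second principal component. The effect of that choice on the lost calls was not tested. Leaving out replicate 5 of wild type with borrelidin kept the 5 calls and added Aco1 (0.13, adjusted p = 0.022).

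**Figure D4:**
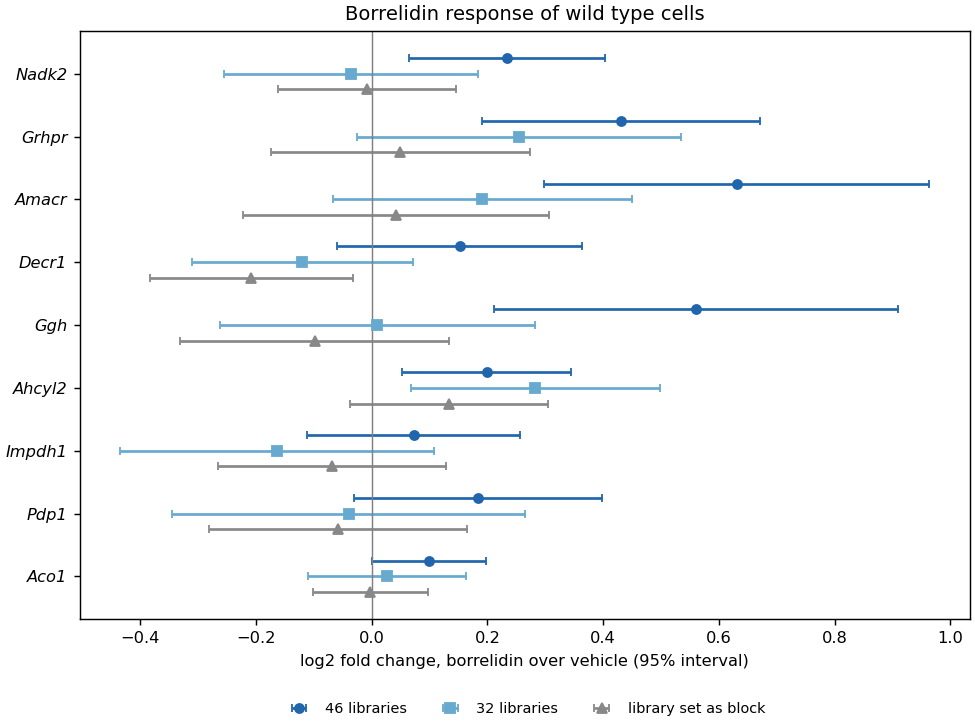
Borrelidin response of wild type cells, as the log2 fold change of borrelidin over vehicle (horizontal axis), with unadjusted 95% intervals. For each gene the 3 marks are the fit of 46 libraries, the fit of the 32 not set apart, and the fit of 46 libraries with the division of the libraries as a block. In these fits Amacr lay at 0.63, 0.19 and 0.04, and Ggh at 0.56, 0.01 and -0.10.

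The level of the 9 genes followed the division of the libraries within groups that share genotype and treatment. Ggh in the libraries set apart was at a log2 ratio of -0.98 to the rest of ATF4 KO with borrelidin, -1.11 to the rest of ATF4 KO with vehicle and -0.82 to the rest of wild type with vehicle. Amacr was at -0.66, -1.30 and -0.64 in the same groups, Grhpr at -0.71, -0.64 and -0.25, and Decr1 at -0.52, -0.61 and -0.39. Nadk2 was at -0.19, -0.46 and -0.39 and Pdp1 at -0.32, -0.39 and -0.32. Impdh1, at -0.07, -0.21 and -0.34, and Aco1, at -0.12, -0.20 and -0.10, moved less, and Ahcyl2 was at -0.10, -0.27 and 0.11. The median over all tested rows was -0.002, 0.01 and 0.08, so that 26 of these 27 ratios of the 9 genes lay below it. What set these libraries apart is given by no label, and its part in the results was not tested.

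**Figure D5:**
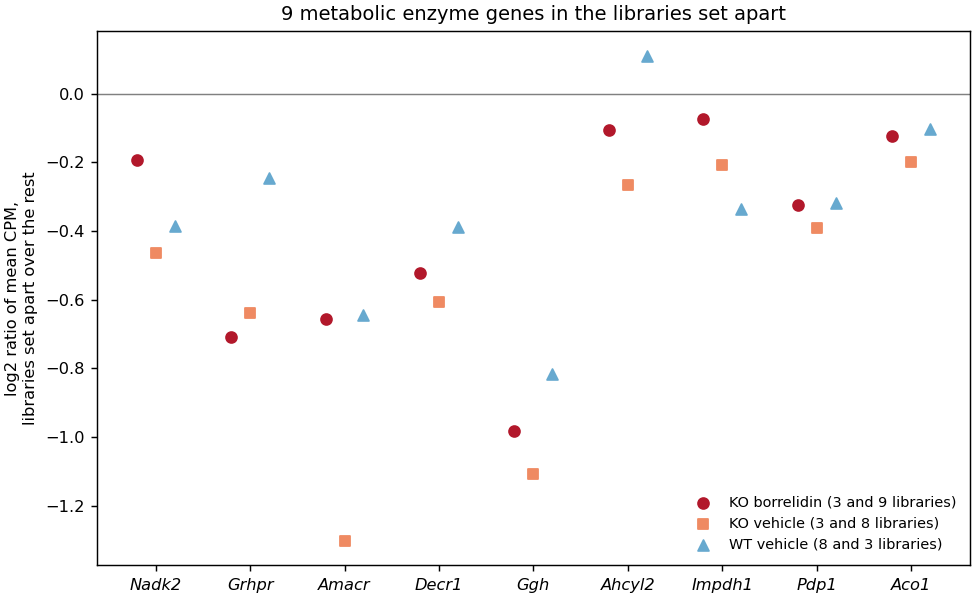
Log2 ratio of mean CPM, libraries set apart over the rest of the same group (vertical axis), for each of the 9 genes in the 3 groups that hold such libraries. In ATF4 KO with vehicle Amacr and Ggh lay lowest, at -1.30 and -1.11, and of the ratios shown only that of Ahcyl2 in wild type with vehicle, 0.11, was above 0.

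With vehicle, 1 of the 9 genes, Pdp1, was higher in ATF4 KO and 2, Nadk2 and Ahcyl2, were lower, where 18.1% of all rows were called higher and 17.2% lower. For none of the 9 did the groups with vehicle separate without overlap, against 5.38% of all rows, and none passed 1e-10, against 2.63%. The medians of the log2 fold change were 0.06 over the 9 genes and -0.001 over all rows. Among the 32 libraries Pdp1 and Nadk2 were called, 2 of the 9, beside 21.2% of all rows.

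The response itself differed between the genotypes, as wild type minus ATF4 KO, for 6 of the 9 genes, and in each it was the higher in wild type: Impdh1, Pdp1, Grhpr, Amacr, Nadk2 and Aco1. Of all rows 16.5% were called with a higher and 17.1% with a lower response in wild type, and 0.501% passed 1e-10, which none of the 9 did. The median difference was 0.39 over the 9 genes and -0.05 over all rows. The differences were 0.66 ± 0.11 for Pdp1 (SE, edgeR adjusted p = 1.7e-05) and 0.52 ± 0.09 for Impdh1 (adjusted p = 3.4e-05), which fell in ATF4 KO. In wild type Impdh1 was not called, and Pdp1 only in the fit of 4 group means. For Grhpr the difference was 0.67 ± 0.16 (adjusted p = 1.7e-03), with a call in wild type and none in ATF4 KO over 46 libraries, except with the replicate number or the division of the libraries as a block.

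Without the 14 libraries 3 of these 6 differences were called, Grhpr (0.49, adjusted p = 0.035), Pdp1 (0.46, adjusted p = 0.013) and Impdh1 (0.32, adjusted p = 0.043), where 9.90% of all rows were called in either direction. With the division of the libraries as a block 2 were called, Impdh1 (0.37 ± 0.08, adjusted p = 5.8e-04) and Pdp1 (0.42 ± 0.10, adjusted p = 9.6e-04). In that fit 1829 of all rows were called in either direction, against 3022 without the block. With this block Grhpr was at 0.30 (adjusted p = 0.096), Amacr at 0.11, Nadk2 at 0.14 and Aco1 at 0.07, none of them called. This comparison shares all 4 groups with the ones above and adds no libraries to them.

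Of the lists of related genes (NADP and NAD, folate, methionine cycle, purines, fat oxidation, citrate cycle, iron regulation, glyoxylate and aldehydes), the genes in the 3 stretches that passed the filter on low counts were the ones already described. A further list of 15 other metabolic enzymes and membrane channels had 9 that passed: Asph, Coq3, Cox6c, Galt, Gba2, Hint2, Ndufa5, Ndufb6 and Rida. Between genotypes under borrelidin 3 of these were lower in ATF4 KO and 2 higher, beside 24.1% and 25.7% of all rows. The lowest was Rida, a deaminase that disarms reactive enamine intermediates of amino acid breakdown, at 34.0 CPM in ATF4 KO and 64.9 CPM in wild type on average (log2 fold change -0.93 ± 0.09, edgeR adjusted p = 6.1e-12). Cox6c, a subunit of cytochrome c oxidase, was at -0.68 (adjusted p = 7.8e-07) and Ndufa5, a subunit of complex I, at -0.49 (adjusted p = 2.6e-03). Galt, the uridylyltransferase of galactose use, was higher, at 0.48 (adjusted p = 3.8e-05), and so was Gba2, a glucosylceramidase outside lysosomes, at 0.24 (adjusted p = 0.017). Over the 32 libraries 3 of these 9 genes were lower and 3 higher, with Coq3 added to the higher ones (0.18, edgeR adjusted p = 0.014). In that fit 54.3% of all rows were called in either direction.

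Over the same 9 genes, 3 were called higher in wild type after borrelidin, Ndufb6 (0.87, adjusted p = 4.0e-04), Hint2 (0.71, adjusted p = 3.3e-04) and Coq3 (0.70, adjusted p = 3.0e-04), and 1 lower, Gba2 (-0.51, adjusted p = 7.8e-06). EdgeR called 0 of them in that comparison without the 14 libraries, as it did for the genes described above. The shares over all rows were 25.5% higher and 32.0% lower, and 10.8% in either direction without the 14 libraries. In ATF4 KO cells 3 were lower after borrelidin and none higher, Asph (-0.32, adjusted p = 5.2e-04), Cox6c (-0.35, adjusted p = 0.012) and Rida (-0.35, adjusted p = 4.2e-03), and without the 14 libraries the counts were 3 lower and 1 higher. Over all rows 15.3% were called lower and 30.3% in either direction, and 41.8% in either direction without the 14 libraries. With vehicle 4 were higher in ATF4 KO and 1, Rida (-0.56, adjusted p = 5.1e-06), lower, beside 18.1% and 17.2% of all rows. Over the 32 libraries 1 was higher, Hint2 (0.50, adjusted p = 0.037), and 1 lower, Rida (-0.64, adjusted p = 7.2e-06), beside 21.2% of all rows called. The response was called higher in wild type than in ATF4 KO for 5 of these genes and lower for 1. The shares over all rows were 16.5% and 17.1%. The median difference was 0.44, close to the 0.39 of the genes described above. Without the 14 libraries 0 of these differences were called, beside 9.90% of all rows.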

How the data were processed

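RNA-seq libraries of MEFs were analysed from the raw counts per gene identifier that the authors deposited, with no normalization and no pooling. The reads had been trimmed with fastp and aligned with HISAT2; for counting, the paper names feature counts, whereas HTSeq and build mm10 appear in the submitters' processing notes. The sources used here state no versions, no strand setting and no annotation release. The 5 closing rows that name no gene stayed out of library sizes and tests, and hold on average 69.0% (no feature), 10.8% (not aligned), 5.1% (low quality), 4.0% (not unique) and 0.3% (ambiguous) of a library. Counts per library were 2047362 to 3467765, and counting error alone gives the 9 genes described a coefficient of variation of 2.75% to 11.0% by group.

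Of the identifiers, 52083 were in GENCODE M21 and 3333 were not. Outside the 3 stretches the mean levels did not follow those of the study (Pearson r = 0.137 across 1773 genes), and within them they did (r = 0.974 across 36 genes). These are correlations across genes, and genes are no independent replicates. The stretches were given as the places where identifiers match genes, so this contrast is no independent check of the genes' identity. Across the 36 genes the row level differed from the study's mean level by 1.37 to 3.62 on the log2 scale. Nadk2 and Grhpr are among the 36. The other genes lie 0.03 to 8.0 Mb from a checked gene and were named by position in the stretch.

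Groups came from the labels, which give biological replicates. The quasi-likelihood test of edgeR 4.0.16 in R 4.3.3 was used, after TMM scaling and filterByExpr. The wild type response was the ATF4 activity term of a fit with genotype, as the study states it, and the rest were contrasts in a fit of 4 group means, all over 46 libraries. Libraries beyond the widest gap between their group's scores on component 2 were set apart if that gap exceeded 50% of the range. Alternatives used 4 group means for the wild type response, DESeq2 1.42.0, limma 3.58.1, median ratio factors, no filter, the groups compared alone, a replicate block, and the libraries set apart left out or as a block. As a block, the division of the libraries was given the same shift in every group. Leaving out replicate 5 of wild type with borrelidin was added after the data were seen. Tables were made in Python 3.11.15, and tests were tried on simulated data. As a check of pairing, deviations from group means were correlated between libraries with the same replicate number. All 11 pairs between the ATF4 KO groups exceeded 0.1 (r from 0.18 to 0.78), and 6 of 11 at most did between other groups. Replicates 1 to 3 of both ATF4 KO groups are libraries set apart, and the other 8 pairs exceeded 0.1 too. No libraries of a group were alike within sampling noise.

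The genes, lists and library division were chosen with earlier results of these data known. Named are all genes given at the start that reached 5 CPM, and those genes of the lists that lie in the stretches and passed the filter.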

Additional observations from a re-analysis of the deposited data

Results flagged for a closer look

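In 6 of the 9 genes the borrelidin response differed between the genotypes by a test of the difference itself, wild type minus ATF4 KO on the log2 scale. Over all rows 16.5% were called with a higher and 17.1% with a lower response in wild type, and 9.90% in either direction without the 14 libraries set apart. The values were 0.72 for Amacr (edgeR adjusted p = 0.017), 0.67 for Grhpr (adjusted p = 1.7e-03), 0.66 for Pdp1 (adjusted p = 1.7e-05), 0.52 for Impdh1 (adjusted p = 3.4e-05), 0.38 for Nadk2 (adjusted p = 0.010) and 0.17 for Aco1 (adjusted p = 0.044). Without the 14 libraries set apart, Grhpr, Pdp1 and Impdh1 were still called, and Amacr (0.39, adjusted p = 0.084), Nadk2 (0.18, adjusted p = 0.40) and Aco1 (0.12, adjusted p = 0.38) were not. With the division of the libraries as a block Grhpr was at 0.30 (adjusted p = 0.096) and not called, and Pdp1 (0.42, adjusted p = 9.6e-04) and Impdh1 (0.37, adjusted p = 5.8e-04) were called. In that fit 1829 of all rows were called in either direction, against 3022 without the block.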

How the results depend on the processing

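Of the fold changes under alternatives, 335 kept direction and side of the threshold. Another 24 kept direction and lost a call, and 11 kept direction and gained one. The other 35 turned sign, and calls lost or gained with the turn are counted only among these. At an adjusted p under 1e-10, of the 9 genes 0 were called for the wild type response, the ATF4 KO response, the difference of response and the genotypes with vehicle, and 1 for the genotypes under borrelidin, and over all rows 118, 44, 45, 236 and 493 in place of 5163, 2721, 3022, 3172 and 4474. Without the 14 libraries 0 of the 9 were called for the wild type response and 3 for the difference, and over all rows 958 and 880, with 1881 for the genotypes with vehicle. With the division of the libraries as a block, 0 were called for the wild type response, 5 for the ATF4 KO response, 2 for the difference and 5 with vehicle, and over all rows 2133, 3872, 1829 and 3154. Grhpr (-0.42, adjusted p = 2.2e-04) and Amacr were the calls this block added with vehicle. With no filter on low counts 4 were called between genotypes under borrelidin, and 4306 rows. Fitted with 4 group means, the wild type response had 6 of the 9 called, with Pdp1 added (0.18, adjusted p = 0.047), and 5337 rows. The causes were not tested.

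Signs turned without the 14 libraries for the wild type response of Nadk2 (-0.035), Pdp1 (-0.040), Decr1 (-0.12) and Impdh1 (-0.16), for the difference of response of Decr1 (-0.15) and Ggh (-0.13), for the genotypes with vehicle in Aco1 (-0.020), Amacr (-0.071), Decr1 (-0.069) and Impdh1 (-0.046), and under borrelidin in Decr1 (0.080) and Ggh (0.19). With the division of the libraries as a block they turned for the wild type response of Nadk2 (-0.0080), Aco1 (-0.0023), Pdp1 (-0.058), Decr1 (-0.21), Impdh1 (-0.069) and Ggh (-0.099), for the difference of response of Decr1 (-0.26), Ahcyl2 (-0.053) and Ggh (-0.26), with vehicle for Aco1 (-0.064), Amacr (-0.31, adjusted p = 0.039), Decr1 (-0.18) and Ggh (-0.076), and under borrelidin for Decr1 (0.077) and Ggh (0.19). Values near 0 turned for Aco1 with vehicle under median ratio factors (-0.0073), DESeq2 (-0.0078), the groups compared alone (-0.013) and without replicate 5 of wild type with borrelidin (-0.0060), and for Ggh under borrelidin with no filter (0.0021), with the groups compared alone (0.0084) and without that replicate (0.0081). Of these, only Amacr with vehicle was called in the direction it turned to.

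In fits blocked on the replicate number the genes called were 5 for the wild type response, 4 for the ATF4 KO response, 7 for the difference, 4 with vehicle and 7 under borrelidin, and over all rows 5201, 2999, 3649, 3794 and 4680. Ahcyl2 turned sign in the difference (-0.0073). Beside Grhpr in ATF4 KO cells, the block added Ggh with vehicle (0.41, adjusted p = 0.0098) and in the difference of response (0.46, adjusted p = 0.032), and changed no other call. In those comparisons the libraries share only a number, and at most 2 libraries of a group correlated best with their own number.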
